A study of Mus musculus with 6 samples.

Results

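The 7 genes described here are the *Lrig* family (*Lrig1*, *Lrig2* and *Lrig3*) and the genes of the ErbB receptors (*Egfr*, *Erbb2*, *Erbb3* and *Erbb4*), among 55414 genes counted in 6 mRNA libraries. *Lrig3* was chosen by its p-value, the smallest of the KO against WT comparison in these libraries. Its difference between genotypes is therefore given as a description, with no test. The other 6 genes belong by family and not by their values, and the differences of 5 of them were tested, *Erbb4* having too few counts.

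LRIG proteins span the cell membrane and carry leucine-rich repeats and immunoglobulin domains outside the cell. LRIG1 binds ErbB receptors and restrains their signalling by directing them to degradation, while less is known of LRIG2 and LRIG3, which have been reported to act on several receptors. ErbB receptors are tyrosine kinases that dimerize when ligands of the EGF and neuregulin families bind, and signal through the RAS-MAPK and PI3K-AKT cascades. ERBB2 has no known ligand and ERBB3 has little kinase activity, so each works in a dimer with another receptor. In the embryonic pancreas, EGF receptor signalling is known to act on the growth of the epithelium.

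The libraries came from Pdx1-Cre labelled cells sorted from the trunk of mouse embryos at E10.5, a stage at which the pancreas is a small bud of multipotent progenitors. All embryos carried Pdx1-Cre and a tdTomato reporter, and came from crosses in which each parent had one normal and one deleted copy of *mir-302*. The 3 WT libraries had the genotype miR-302WT and the 3 KO libraries the genotype miR-302KO, which lacks the *mir-302* cluster in the whole embryo. Pdx1-Cre marks pancreatic cells and also other foregut cells, and the number of embryos in a library is not given in the sources used here.

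Total counts ran from 17352498 to 26634523. The *mir-302* genes could not check the labels, since *Mir302d* had 2 counts, in KO replicate 3, and *Mir302a*, *Mir302b*, *Mir302c* and *Mir367* had 0 throughout. Their host gene *Larp7* differed by -0.03 on the log2 scale. The 10 markers of pancreatic progenitors were detected in every library. *Gata4* was the highest of them over the 6 libraries, at 172.7 to 248.9 CPM in WT and 322.0 to 341.8 CPM in KO (DESeq2 adjusted p = 9.19e-04, edgeR adjusted p = 0.14), and *Sox9* was at 177.8 to 259.1 CPM in WT. Their summed level was 839.3 to 956.7 CPM (counts scaled to library size, here with TMM factors) in WT and 905.7 to 1114 CPM in KO. Other cells were present to unequal degrees. Red blood cell markers, led by *Hbb-y*, summed to 15940 CPM in WT replicate 3 and, among KO libraries, to 6379 CPM in replicate 1 and 335.6 CPM in replicate 3, with at most 2.29 CPM elsewhere. Mesenchymal markers, led by *Col3a1*, summed to 180.7 to 1096 CPM in WT and to 39.7 CPM in KO replicate 2, where 4 of the 8 were at 0, against 1041 and 1237 CPM in the other KO libraries. Liver markers, led by *Afp*, ran from 915.7 to 2148 CPM in WT and from 763.2 to 2418 CPM in KO. Endothelial markers, led by *Tek*, ran from 4.01 to 9.08 CPM in WT and from 1.48 to 26.1 CPM in KO, and those of neural crest and glia from 4.1 to 10.4 CPM and from 4.5 to 14.5 CPM. In sorted bulk cells, fewer cells of a type and less RNA per cell cannot be told apart.

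The loss studied here is that of a microRNA family, whose mature strands share a seed, the bases that pair with target transcripts. The strands below are the miR-302 3p strands found in the RefSeq table (GRCm38.p6, chromosome 3), with bases 2 to 8 in capitals. The strand miR-302a-3p was not in that table. The entry of miR-302c-3p begins at the second base of the other strands, so its capitals are shifted by 1 base.
miR-302b-3p: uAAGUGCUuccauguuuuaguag
miR-302c-3p: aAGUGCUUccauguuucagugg
miR-302d-3p: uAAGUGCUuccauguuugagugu

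Matches to the seed of miR-302b-3p were searched in 3′UTRs, taking for a gene its longest annotated one. The strands of *Mir367* were not searched. *Lrig3*, *Lrig2*, *Egfr* and *Erbb3* had 0 matches, *Lrig1* and *Erbb2* had 1 each and *Erbb4* had 2, where 20.6% of the genes tested held 1 or more. The matches of the expressed members are shown with their neighbouring bases, the match in capitals. That of *Lrig1*, at base 431 of a 3′UTR of 1223 bases, pairs with bases 2 to 7 and is followed by an A. That of *Erbb2*, at base 411 of 1048, pairs with bases 2 to 8.
Lrig1 match: ttggctgtgtgGCACTTAgtggtcagatt
Erbb2 match: aagagggggacAGCACTTgcacccagact

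The members spanned a wide range of levels. Per kilobase of the longest transcript, a scale on which genes can be compared, *Erbb2* had the highest WT level, at 30 ± 0.793 CPM per kb (SD, n = 3). *Erbb3* followed at 15 ± 2.27, *Lrig2* at 6.85 ± 0.477, *Lrig3* at 2.10 ± 0.244, *Lrig1* at 1.16 ± 0.372, *Egfr* at 0.383 ± 0.200 and *Erbb4* at 0.00713 ± 0.00633 CPM per kb. In WT, the library ranges of no neighbours in this order overlapped, so the receptor pair *Erbb2* and *Erbb3* stood above every *Lrig* gene, and *Egfr* and *Erbb4* stood below them. In KO, *Lrig3* at 6.72 to 7.80 CPM per kb lay within the range of *Lrig2*, 6.14 to 8.42 CPM per kb. All other neighbours stayed apart there. With the mean length of all transcripts of a gene in place of the longest, the WT ranges of *Erbb3* (13.2 to 17.5 CPM per kb) and *Lrig2* (13.6 to 15.5 CPM per kb) overlapped. Those of *Lrig1* (1.76 to 3.22 CPM per kb) and *Egfr* (0.794 to 2.1 CPM per kb) overlapped as well. The separation of these neighbours thus depended on the length used.

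**Figure D1:**
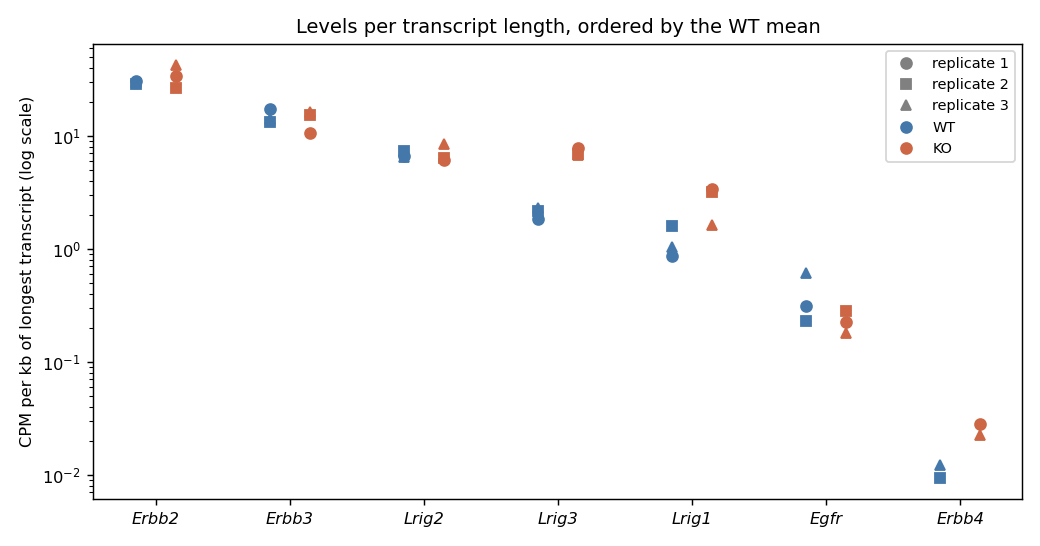
Level of each member in CPM per kb of its longest transcript (log axis), by library, with WT in blue and KO in orange and the marker shape giving the replicate. The genes are ordered by their WT mean, from *Erbb2* at 30 to *Erbb4* at 0.00713 CPM per kb; libraries of *Erbb4* at 0 counts (WT replicate 1 and KO replicate 2) are not drawn, and *Lrig3* in KO reaches the level of *Lrig2*.

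*Lrig3* (ENSMUSG00000020105.10) was at 7.35, 8.66 and 9.27 CPM across the WT libraries, listed here and below in the order of replicates 1, 2 and 3, and at 31.3, 27.6 and 27 CPM across the KO libraries. Every KO library was thus above every WT library, with little spread within either genotype. Choosing the gene with the smallest p favours such a pattern. The mean of the WT libraries was 8.43 ± 0.981 CPM and that of the KO libraries 28.6 ± 2.33 CPM (SD, n = 3 each). The KO mean was thus 3.40-fold higher by the fitted log2 fold change, 1.76 with a standard error (SE) of 0.15. The libraries fall into 2 series by the first digit of their library code, whose meaning is not stated. Within the series of WT replicates 1 and 2 and KO replicate 1, the log2 difference was 1.96, and within that of WT replicate 3 and KO replicates 2 and 3 it was 1.55. Between WT replicate 2 and KO replicate 1, whose library codes differ only in the last letter, it was 1.84. These values come from the libraries by which *Lrig3* was chosen and are a description only. Next to *Lrig3* in the order of p-values stood *Mal2* and *Ihh*, with log2 fold changes of 1.83 and 1.42.

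*Lrig1* (ENSMUSG00000030029.15), the family member best known for restraining ErbB receptors, was at 4.29, 7.82 and 5.15 CPM across the WT libraries. Across the KO libraries it was at 16.9, 15.8 and 8.11 CPM. The genotypes did not overlap, but KO replicate 3 lay close to WT replicate 2. The log2 fold change was 1.25 (SE 0.35, unadjusted 95% interval 0.43 to 2.06). It did not pass edgeR's quasi-likelihood test over all genes (adjusted p = 0.218), while DESeq2's Wald test gave an adjusted p of 0.00988. Over the alternative settings, the adjusted p ranged from 0.00988 to 1 and the log2 fold change from 0.90 to 1.56. Within the library code series, the log2 difference was 1.53 and 1.12. *Slc25a26* overlaps *Lrig1* on the opposite strand, and without a stated strand setting reads from the shared part cannot be told apart. *Slc25a26* had 167 to 233 counts in WT and 187 to 231 counts in KO.

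*Lrig2* (ENSMUSG00000032913.14), the most abundant *Lrig* gene in WT, was at 47.0, 52.5 and 46.3 CPM across the WT libraries and at 43.6, 45.2 and 59.8 CPM across the KO libraries. The genotypes overlapped. Its log2 fold change was 0.03 (SE 0.15, 95% interval -0.32 to 0.37, adjusted p = 0.977 by edgeR's quasi-likelihood test). It was -0.10 without KO replicate 3 and -0.01 with the library code series as a term. With offsets for the GC share of the most GC-rich 200 bases of the transcript, it was -0.03.

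As a family, the *Lrig* transcripts summed to 9.32 to 11.1 CPM per kb in WT and 16.4 to 17.4 CPM per kb in KO. *Lrig3* made up 19.4% to 23.4% of this sum in WT and 40.0% to 44.9% in KO, and *Lrig2* 66.1% to 71.1% and 35.4% to 50.2%. These sums hold *Lrig3* and so describe the same difference.

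**Figure D2:**
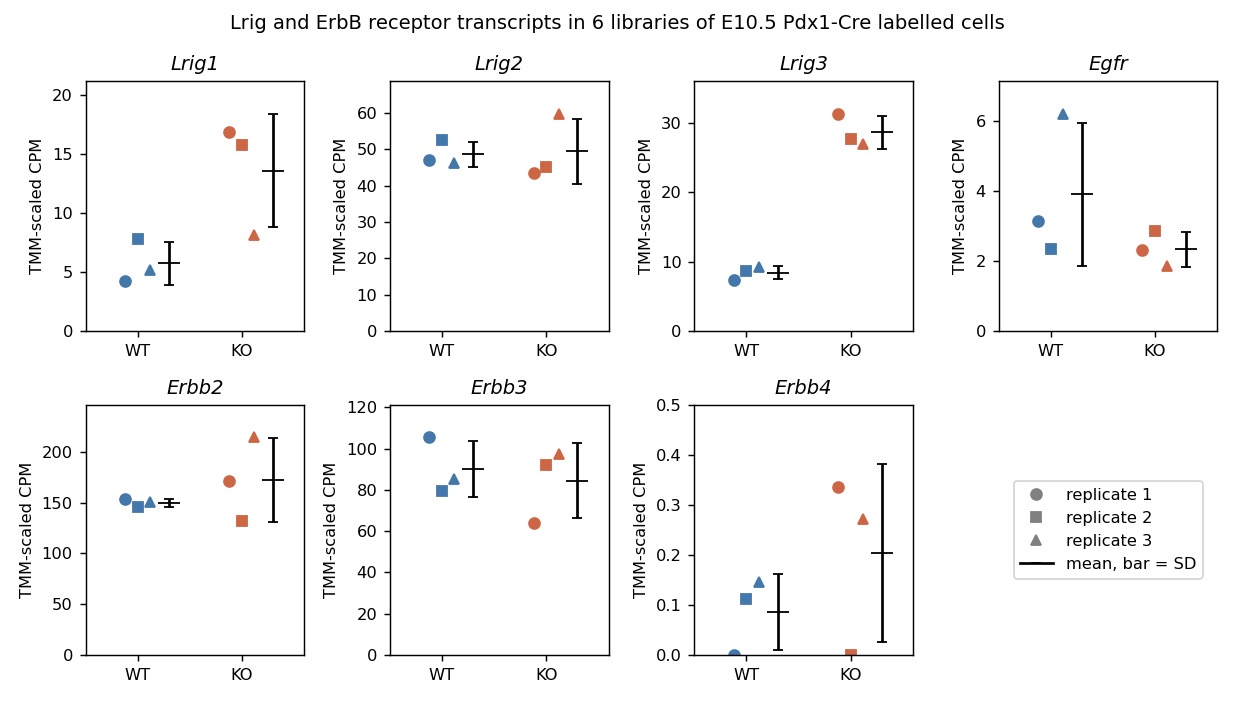
TMM-scaled CPM of each member in the 6 libraries, WT in blue and KO in orange, with the marker shape giving the replicate and the black bars the mean and SD of 3 libraries; each panel has its own axis from 0. *Lrig3* and *Lrig1* do not overlap between genotypes, while *Lrig2* and the receptors do, and the highest *Egfr* value (6.21 CPM) is that of WT replicate 3.

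By the test over all genes, 0 of the 5 tested members other than *Lrig3* had an adjusted p under 0.05 in edgeR, as did 0% of the 16353 genes tested. *Erbb4* did not pass the filter on low counts. At an unadjusted p under 0.05, which 6.42% of genes reached higher in KO and 3.97% lower, *Lrig1* was the only member other than *Lrig3*. DESeq2 called 4.22% of its 14353 genes higher and 0.648% lower, and of the members other than *Lrig3* it called *Lrig1* alone. The genotypes did not overlap for 8.36% of genes higher in KO and 7.99% lower, and *Lrig1* was the only such member besides *Lrig3*.

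Among the receptors, *Erbb2* (ENSMUSG00000062312.6), the shared dimer partner, was the highest in counts. It was at 153.9, 146.0 and 150.7 CPM across the WT libraries and at 171.6, 132.1 and 214.5 CPM across the KO libraries. The KO libraries lay on either side of the WT libraries and were more spread. The log2 fold change was 0.20 (SE 0.16, 95% interval -0.18 to 0.58, adjusted p = 0.779 by edgeR's quasi-likelihood test). *Mien1* overlaps *Erbb2* on the opposite strand and had 71 to 153 counts, against 2319 to 4605 for *Erbb2*.

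*Erbb3* (ENSMUSG00000018166.9), a neuregulin receptor that signals mainly through PI3K, was at 105.4, 79.5 and 85 CPM across the WT libraries and at 63.8, 92.1 and 97.4 CPM across the KO libraries. KO replicate 1 was the lowest library and the other KO libraries lay within the WT range. Its log2 fold change was -0.09 (SE 0.18, 95% interval -0.52 to 0.33, adjusted p = 0.932 by edgeR's quasi-likelihood test). Its sign turned without KO replicate 1 (0.09) or WT replicate 1 (0.04).

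*Egfr* (ENSMUSG00000020122.17), the receptor of EGF, TGFα and amphiregulin, was lowly expressed, at 3.16, 2.35 and 6.21 CPM across the WT libraries. Across the KO libraries it was at 2.31, 2.85 and 1.85 CPM. WT replicate 3 stood above all other libraries, which overlapped. The log2 fold change was -0.74 (SE 0.41, 95% interval -1.70 to 0.22, adjusted p = 0.616 by edgeR's quasi-likelihood test), and it was -0.20 without WT replicate 3. That library also had the most red blood cell transcripts and 1096 CPM of mesenchymal markers, a level that KO replicates 1 and 3 also had (1237 and 1041 CPM) with *Egfr* at 2.31 and 1.85 CPM. The part of these cells in the *Egfr* values was not tested.

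*Erbb4* (ENSMUSG00000062209.16), which binds neuregulins, had 0, 2 and 3 counts across the WT libraries and 9, 0 and 5 counts across the KO libraries. All WT libraries were at or under the floor of 3 counts, 0.141 to 0.168 CPM, and a difference was not detectable at this depth. Summed over the 4 receptors, the libraries ranged from 42.6 to 48.5 CPM per kb in WT and from 42.0 to 59.2 CPM per kb in KO, and *Erbb2* made up 63.3% to 68.4% of this sum in WT and 62.8% to 75.9% in KO.

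**Figure D3:**
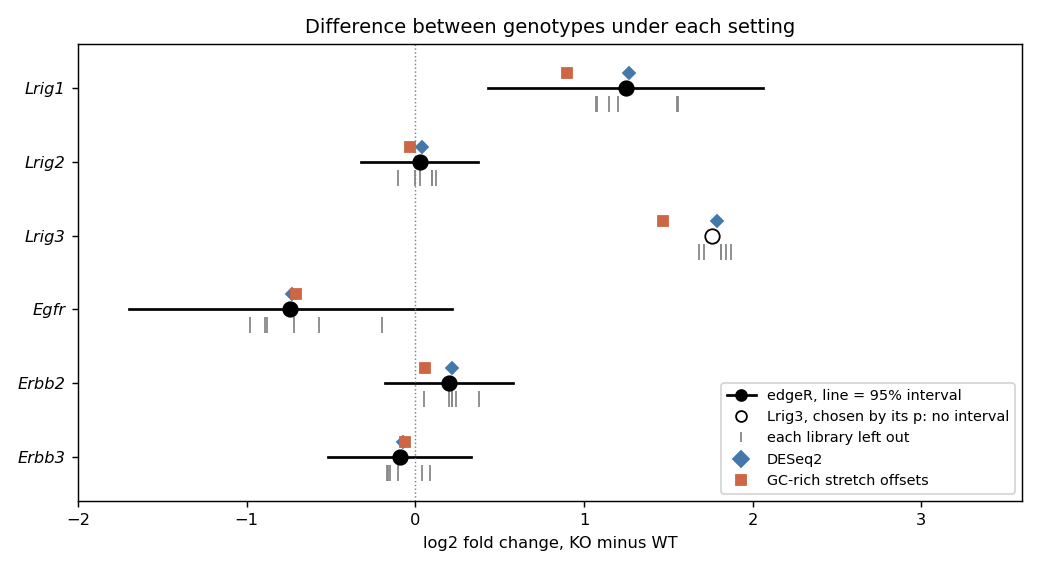
Log2 fold change (KO minus WT) of the 6 members tested. Black points are edgeR estimates with unadjusted 95% intervals, the open point is *Lrig3* (chosen by its p, so drawn without an interval), grey ticks are fits with 1 library left out, blue diamonds are DESeq2 and orange squares are edgeR with offsets for the GC share of the richest stretch. The offsets bring *Lrig3* from 1.76 to 1.47 and *Lrig1* from 1.25 to 0.90, and the *Egfr* tick at -0.20 is the fit without WT replicate 3.

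*Lrig1* and *Lrig3* share a feature of sequence by which the fold changes of all genes differed. The GC share of the most GC-rich 200 bases of the transcript was 82.5% in *Lrig1* and 80.5% in *Lrig3*, values above 95.7% and 92.4% of the tested genes. In *Lrig3* these bases ran from 190 to 389 of a transcript of 4016 bases, across the start of the coding sequence at base 224. In *Lrig1* they ran from 226 to 425, before the coding sequence. Of genes with such a stretch at 75% GC or more, 23.3% had an unadjusted p under 0.05 and were higher in KO, against 2.4% of the other genes. Among the 970 tested genes with 80% to 85% GC, where *Lrig1* and *Lrig3* fall, 43.5% did and the median log2 fold change was 0.50. Among the 219 genes with 85% GC or more, 14.2% did and the median was 0.04, so the shift did not grow steadily with the GC share. *Lrig2* at 76.0% and *Erbb2* at 77.5% fall among genes of 75% to 80% GC, whose median was 0.07, and *Egfr* at 68.5% and *Erbb3* at 64.5% among genes whose medians were -0.03 and -0.04. With offsets for a smooth trend on this share, the log2 fold change of *Lrig3* was 1.47 and that of *Lrig1* 0.90 (adjusted p = 0.329 by edgeR's quasi-likelihood test). The offsets centre genes of like GC share, so a trend between libraries and an effect of genotype on such genes cannot be told apart.

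**Figure D4:**
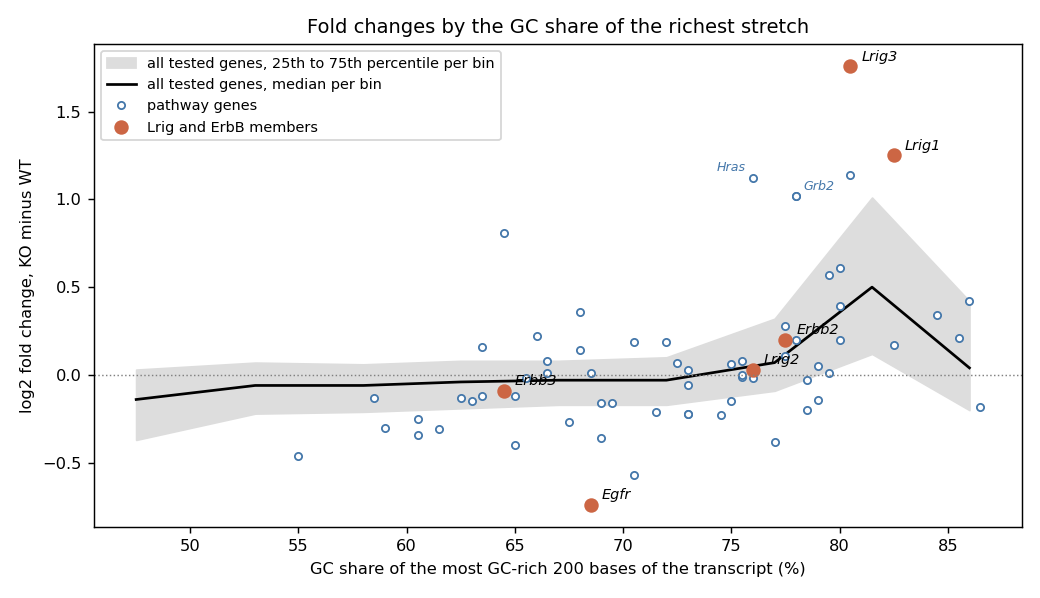
Log2 fold change (KO minus WT) against the GC share of the most GC-rich 200 bases of each transcript, for the members (orange), the pathway genes (blue circles) and all tested genes (black line, median per bin; grey, 25th to 75th percentile of the genes). The median of all genes is near 0 up to 75% GC, 0.50 between 80% and 85%, where *Lrig1* and *Lrig3* lie, each above it, and 0.04 at 85% or more.

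The promoters of the family are shown because *Lrig1* and *Lrig3* were higher in every KO library and *Lrig2* was not. The RefSeq table held promoters for 6 of the 7 members, from 250 bases before to 50 bases after the start of the gene (GRCm38.p6). Capitals mark any of 4 motifs, searched on both strands: CACGTG (an E-box), GGGCGG (known as a GC box), CCAAT (bound by factors such as NF-Y) and TATAAA (the core of the box bound by TBP).
Lrig3, chr10:125965969-125966268, plus strand: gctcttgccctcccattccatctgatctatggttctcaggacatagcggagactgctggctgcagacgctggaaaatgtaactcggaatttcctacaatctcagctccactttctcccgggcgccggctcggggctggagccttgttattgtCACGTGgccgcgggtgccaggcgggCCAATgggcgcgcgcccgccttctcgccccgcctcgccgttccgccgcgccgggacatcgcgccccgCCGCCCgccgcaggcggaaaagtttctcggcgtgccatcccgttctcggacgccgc
Lrig1, chr6:94700096-94700395, minus strand: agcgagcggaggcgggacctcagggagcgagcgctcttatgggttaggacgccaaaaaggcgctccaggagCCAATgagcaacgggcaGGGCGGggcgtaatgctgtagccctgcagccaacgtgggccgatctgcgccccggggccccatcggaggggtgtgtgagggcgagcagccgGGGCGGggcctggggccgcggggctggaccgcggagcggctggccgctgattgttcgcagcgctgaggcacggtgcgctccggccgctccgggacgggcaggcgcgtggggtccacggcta
Lrig2, chr3:104511869-104512168, minus strand: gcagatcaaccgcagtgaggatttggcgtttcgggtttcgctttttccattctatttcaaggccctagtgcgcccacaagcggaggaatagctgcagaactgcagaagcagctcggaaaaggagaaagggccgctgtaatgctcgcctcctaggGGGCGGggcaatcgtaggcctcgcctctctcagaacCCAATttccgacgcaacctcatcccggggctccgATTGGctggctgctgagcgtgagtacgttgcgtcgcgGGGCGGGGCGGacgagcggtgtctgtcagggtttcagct

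The *Lrig3* promoter held 36 CpG and 66.3% GC, that of *Lrig1* 35 and 73% and that of *Lrig2* 25 and 59.7%, against medians of 7 CpG and 52.7% GC over 32817 promoters. All 3 held GGGCGG and CCAAT, which 35.6% and 37.4% of promoters hold, and none held TATAAA, which 13.6% hold. *Lrig3* alone held CACGTG, 98 bases before its start, a motif present in 7.15% of promoters. Of the receptors, the promoters of *Egfr*, *Erbb2* and *Erbb4* held 15, 21 and 17 CpG. A match is a description of the letters and not of binding.

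The 5 genes whose pattern over the 6 libraries was most like that of *Lrig3*, by the root mean square difference of centred log2 CPM (prior count 2), were *Mal2* at 0.1, *Ihh* at 0.192, *Trim62* at 0.200, *Pom121* at 0.201 and the predicted gene *Gm14121* at 0.216. *Ihh* encodes the ligand Indian hedgehog and *Mal2* a membrane protein of epithelial transport. *Mal2* was at 4.76, 4.52 and 5.39 CPM across the WT libraries and at 19.1, 17.5 and 15.6 CPM across the KO libraries, with KO replicate 1 the highest, as for *Lrig3*. The first 4 contain a stretch of 80% to 82.5% GC, and *Gm14121* had no protein-coding transcript to search. *Lrig1* stood at 0.46, the 278th smallest of 16352 genes, where the median gene was at 0.93. *Erbb2*, *Lrig2*, *Erbb3* and *Egfr* stood at 0.83, 0.90, 0.99 and 1.26. The measure rests on 6 libraries and mainly on the difference between genotypes.

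The ligands of the receptors were mostly low. Of 11 ligand genes, 6 passed the filter, 2 of them higher and 4 lower in KO. Their median log2 fold change was -0.13 against -0.02 over all genes tested. *Tgfa* (ENSMUSG00000029999.15), a ligand of EGFR, was the highest, at 14.1, 16.4 and 11.4 CPM across the WT libraries and at 21.6, 24.8 and 17.6 CPM across the KO libraries. The genotypes did not overlap, and the log2 fold change was 0.61 (SE 0.20, adjusted p = 0.297 by edgeR's quasi-likelihood test, DESeq2 adjusted p = 0.0709). With the GC offsets it was 0.34.

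*Hbegf*, whose product binds EGFR and ERBB4, was at 5.81 to 6.65 CPM in WT and 4.79 to 7.72 CPM in KO. *Egf* was at 2.82 to 7.43 CPM in WT and 3.13 to 5.22 CPM in KO. The neuregulin genes *Nrg1* and *Nrg4* were at 1.28 to 1.99 and 1.89 to 3.18 CPM in WT, and at 0.171 to 2.34 and 1.42 to 4.19 CPM in KO. For *Nrg1*, the value of 0.171 CPM was that of KO replicate 2 and rested on 3 counts, the floor. That library had 39.7 CPM of mesenchymal markers. WT replicate 2, with 180.7 CPM of them, had *Nrg1* at 1.28 CPM, and KO replicate 1, with 1237 CPM, at 1.27 CPM. The part of these cells in the *Nrg1* values was not tested. *Btc* was at 0.471 to 1.21 CPM in WT and 0.634 to 1.03 CPM in KO. The genotypes overlapped for each of these 5 ligands, with adjusted p of 0.938 to 0.997 by edgeR's quasi-likelihood test. *Areg*, *Ereg*, *Epgn*, *Nrg2* and *Nrg3* had at most 8 counts in any library and were not tested.

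Downstream of the receptors, some genes that carry the signal towards MAPK had log2 fold changes over 1, *Hras* and *Grb2* among them. *Hras* (ENSMUSG00000025499.19), a RAS GTPase, was at 19.4, 32.3 and 17.6 CPM across the WT libraries and at 60.7, 57.2 and 32.2 CPM across the KO libraries. *Grb2* (ENSMUSG00000059923.14), the adaptor that ties receptors to RAS activation, was at 12, 29.1 and 15.2 CPM across the WT libraries and at 44.4, 40.8 and 28.3 CPM across the KO libraries. In both, KO replicate 3 fell just within the WT range, under WT replicate 2, the same pair of libraries that came close in *Lrig1*. The log2 fold changes were 1.12 for *Hras* and 1.02 for *Grb2* (standard errors 0.31 and 0.34).

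By edgeR's quasi-likelihood test, *Hras* and *Grb2* had adjusted p of 0.223 and 0.330 and so did not pass, while DESeq2 gave 0.00364 and 0.0276. The richest 200 bases of these transcripts held 76.0% and 78.0% GC. With the GC offsets, their log2 fold changes were 1.08 and 0.86. *Nras*, a further RAS gene, at 60.5% GC, had a log2 fold change of -0.25 (adjusted p = 0.444), and every KO library was below every WT library.

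Over the Ras-MAPK list as a whole, 7 of 10 genes were higher in KO and 3 lower, and the median log2 fold change was 0.08. The kinases between RAS and ERK lay between -0.02 (*Araf*) and 0.21 (*Braf*), named after their values were seen. Of 8 adaptors, 3 were higher and 5 lower (median -0.08), and *Grb2* alone had an unadjusted p under 0.05.

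In the PI3K-AKT list, 4 of 10 genes were higher and 6 lower, with a median of -0.19. *Akt1* and *Pik3r2* had an unadjusted p under 0.05, at 0.34 and 0.19 on the log2 scale (adjusted p = 0.438 and 0.468). *Akt1* has a stretch of 84.5% GC and was at -0.04 with the GC offsets.

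Of 13 genes that MAPK signalling induces or that feed back on it, 9 were higher and 4 lower, with a median log2 fold change of 0.16. *Spry1*, a feedback inhibitor, was at 0.42 (adjusted p = 0.297), and at 0.01 with the GC offsets, its richest stretch holding 86.0% GC, a share at which the median of all genes was 0.04 without offsets. *Ccnd1*, which encodes cyclin D1, was at -0.57 (adjusted p = 0.380), with KO replicate 2 at 144.7 CPM inside the WT range of 137.1 to 171.9 CPM and KO replicates 1 and 3 at 94.8 and 81.7 CPM. *Dusp6* and *Etv5*, named after their values were seen as common readouts of MAPK signalling, were at 0.01 and -0.03. Other genes of this list, also named after their values were seen, lay further from 0. *Dusp4*, *Spry4* and *Egr1* were at 0.19, 0.36 and 0.39, and *Spred2* was at -0.38. None passed edgeR's quasi-likelihood test (adjusted p of 0.624 to 0.937), and *Egr1* ran from 10.8 to 109.2 CPM within WT.

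Of 8 other inhibitors of ErbB receptors, 2 were higher and 6 lower (median -0.14). *Socs5* was at 0.57 (adjusted p = 0.356), without overlap between genotypes, and at 0.33 with the GC offsets. *Errfi1*, the feedback inhibitor MIG6, named after its values were seen, was at 0.06 (adjusted p = 0.898). The 4 genes of ligand shedding, among them *Adam10* and *Adam17*, lay between -0.23 and 0.07. *Met*, *Ret* and *Fgfr1*, receptors that LRIG proteins have also been reported to bind, were at 0.20, 0.81 and 0.01 (adjusted p = 0.844, 0.724 and 0.992).

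Over all 8 lists of the pathway, 31 of 62 tested genes were higher and 31 lower, and the median was 0.00. At an unadjusted p under 0.05, 10 genes (of 62) were higher and 2 lower, where 6.42% and 3.97% of all genes were. By adjusted p, edgeR called 0. DESeq2 called 4 of the 61 it tested, each higher in KO and *Hras* and *Grb2* among them, where it called 4.22% of all genes higher. Of the 62 genes, 28 hold a stretch of 75% GC or more, as do 22.9% of all tested genes with a sequence.

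Other membrane proteins also join leucine-rich repeats to immunoglobulin domains. Of 15 such genes, 10 were tested, 6 were higher and 4 lower, and the median log2 fold change was 0.39. *Lrrc4* was at -1.23 (adjusted p = 0.334), with 1.79, 4.69 and 2.23 CPM across the WT libraries and 1.34, 1.20 and 1.14 CPM across the KO libraries. *Islr* was at 0.77 (adjusted p = 0.477) with overlapping genotypes. Both edgeR, by adjusted p, and DESeq2 called 0 of the 10.

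**Figure D5:**
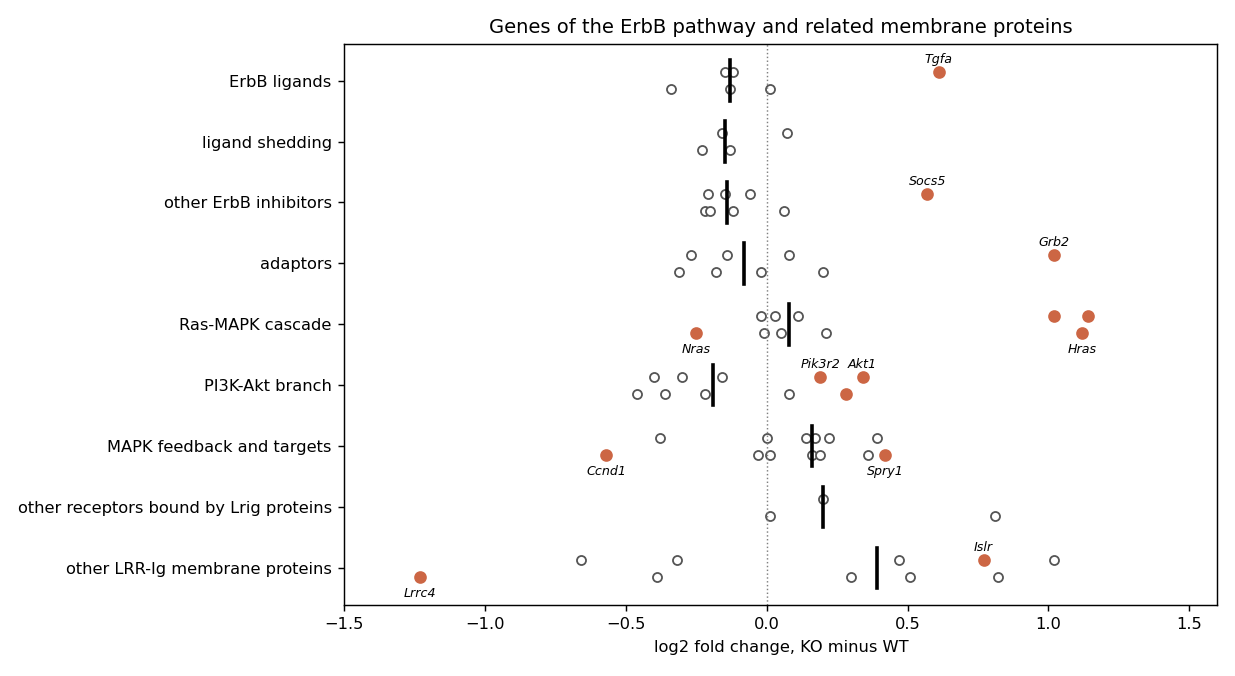
Log2 fold change (KO minus WT, edgeR) of each tested gene in 9 lists, with the black bar at the median of the list; filled orange points are genes with an unadjusted p under 0.05 (those described in the text are named), open circles are the others. Most medians lie near 0, from -0.19 in the PI3K-AKT list to 0.39 in the other LRR-Ig proteins, and *Hras* and *Grb2* stand at 1.12 and 1.02.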

How the data were processed

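Messenger RNA of 3 WT and 3 KO libraries was measured, grouped by the genotype in the labels. The authors aligned reads to GRCm39 with STAR, counted them on genes with GenomicAlignments and deposited whole-number counts without normalization; DESeq2 is also named. Versions, annotation, strand and the treatment of reads shared between genes are not given in the sources used here. Nothing states that libraries of a genotype came from separate embryos, so p-values measure the spread between these libraries only, as do the intervals.

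Counts were tested with edgeR 4.0.16 in R 4.3.3 (filterByExpr, TMM, glmQLFit and glmQLFTest at their defaults, genotype as the term) with Benjamini-Hochberg adjustment over all 16353 genes tested. DESeq2 1.42.0 was the alternative. Both were tested on simulated data. CPM were TMM-scaled. Low values were judged against a floor of 3 counts. Symbols were found for 94% of identifiers. Transcripts came from GENCODE M21 (GRCm38), and 84.7% of the tested genes had a protein-coding one to search for GC-rich stretches.

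The members and gene lists were chosen with earlier results of these data known. Named were the members, measured ErbB ligands, list genes with an unadjusted p under 0.05 (at most 4 per list), the 5 genes most like *Lrig3*, the highest marker of each cell type, and *Larp7*. Other genes are said to be named after their values were seen. Some genes that the rule selects are counted in their lists and not reported here by name. The alternatives left out each library or the pair rich in blood, and changed the test, scaling, filter and spread estimate. Others added a replicate block, the library code series or GC offsets.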

Additional observations from a re-analysis of the deposited data

How the results depend on the processing

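The direction of *Lrig1*, *Egfr* and *Erbb2* was the same under all 14 alternatives of the fit. So was that of *Lrig3*, which is a description only, since *Lrig3* was chosen by its p-value in these libraries. The log2 fold change of *Lrig3* ran from 1.68 to 1.87 with each library left out, and was 1.47 with the GC offsets. That of *Lrig1* ran from 1.07 to 1.56 with each library left out, and DESeq2 (1.27) was the only setting in which it passed. *Egfr* ran from -0.98 to -0.20 and *Erbb2* from 0.05 to 0.38 with each library left out. *Lrig2*, near 0, ran from -0.10 to 0.12, and was -0.01 with the library code series as a term and -0.03 with the GC offsets. *Erbb3* ran from -0.17 to 0.09, and was 0.06 without the pair of libraries rich in blood (WT replicate 3 and KO replicate 1). The causes were not tested.

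Genes called numbered 0 with edgeR, 699 with DESeq2 and 264 without the filter, and 0 to 217 with each library left out, where the 217 came without WT replicate 2. In the pathway lists they numbered 0, 4, 2 and 0 to 2, the 2 again without WT replicate 2. At an unadjusted p under 0.05, the 10 pathway genes higher in KO became 5 without WT replicate 1 or WT replicate 3, 6 without KO replicate 2, 3 without the pair rich in blood and 5 with the GC offsets. The 2 lower became 0 without WT replicate 3 or KO replicate 1, and 5 with the GC offsets.

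Among ligands and pathway genes near 0, the sign turned with 1 library left out for *Egf* (-0.39 to 0.33), *Btc* (-0.44 to 0.17), *Nrg1* (-1.06 to 0.18), *Nrg4* (-0.74 to 0.15) and *Hbegf* (-0.16 to 0.20). *Egf* was 0.10 with the library code series as a term. *Hbegf* was -0.15 and *Btc* 0.33 without the pair rich in blood, and *Akt1* was -0.04 with the GC offsets.

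The replicate numbers were not shown to pair libraries: deviations of same-numbered libraries correlated at -0.211, 0.251 and 0.078. With the replicate number as a block, 0 genes were called, *Lrig3* was 1.77 and *Lrig1* 1.22, and *Hbegf* turned to -0.02.

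With the mean length of all transcripts, WT levels were 2.37 CPM per kb for *Lrig1*, 14.3 for *Lrig2*, 3.99 for *Lrig3*, 1.32 for *Egfr*, 45.8 for *Erbb2* and 0.0159 for *Erbb4*. Of the 5 genes most like *Lrig3*, 4 stayed with a prior count of 0.5 and 5 with DESeq2 size factors. Depth limits *Erbb4* and the lowest ligands.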
